A study of Bombyx mori with 2 samples.

Results

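The loci described here are the longest spliced transcription units of the silkworm wing buds, those in which a single assembled transcript covered 50 kb or more of the genome. Transcripts of both wing buds were joined into a locus if any exon base was shared on 1 strand, and a locus was taken when it had a transcript with introns in each wing bud and 1 transcript of at least 50000 bases from start to end in either. The rule found 687 of the 25992 loci in all. It left 9736 shorter spliced loci, which are the basis of comparison, among 10423 loci with introns in both wing buds. No level and no difference between the wing buds was a term of the rule. Loci that reached 50 kb in both wing buds were nonetheless better covered than the others. Levels and ratios below are therefore not independent of the rule.

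The study compared the hindwing bud with the forewing bud of *Bombyx mori*, a moth that builds its wings from folded epithelial sheets within the larval body. Hindwing buds came from the third thoracic segment and forewing buds from the second, in both cases from larvae of the strain Daizo in instar IV. Total RNA of 80 pooled buds gave 1 library for each wing, so differences describe these libraries and carry no test or p-value. The pools may hold cells other than wing epithelium, and with no gene names the tissue could not be checked against marker genes.

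An intron is copied with the rest of the gene and then cut out of the RNA, so the polymerase must cross it each time a transcript is made. In animals the introns nearest the 5′ end of a gene are often the longest, and they are known to hold many of the enhancers and alternative start sites of developmental genes. In *Drosophila* several regulators of body pattern and of the nervous system are known for introns far longer than their exons. The assemblies numbered their loci, so those below are given by scaffold, strand, start and end, as deposited and counted from 1, without a gene name.

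The depth estimated from the deposited confidence bounds was 43526600 hindwing and 37191700 forewing fragments. The long loci held 1530 hindwing and 1419 forewing transcripts and 5.42% of hindwing and 5.48% of forewing fragments. The median long locus rested on 1331 hindwing and 1136 forewing fragments. The deposited intervals take in the error of counting and of assigning fragments to forms, and PCR copies were not marked. The deposited FPKM lay inside its own interval for 91.6% of hindwing and 95.1% of forewing transcripts of the long loci. At the rest the midpoint and the deposited value can differ. The percentages of loci below have 95% Wilson intervals, which treat loci as independent although they share libraries and an assembly.

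The long loci consisted almost wholly of intron, and in most of them 1 intron outweighed all the others. Their longest transcripts spanned a median of 84165 bases (quartiles 61294 and 122048), up to 545622 bases, against 6679 bases in shorter spliced loci. Introns filled a median of 96.7% of that span, against 69.4%. These lengths follow from the rule and are description only. The longest intron of a long locus had a median of 49937 bases and took more than 50% of the span in 468 of 687 loci (68.1%, interval 64.5 to 71.5%), against 21.6% of shorter spliced loci. An intron of 100 kb or more was present in 114 long loci, and introns of 10 kb or more made up 20.9% of the 6287 introns in the longest transcripts but 88.6% of their intron bases. Only 3 long loci had no intron of 10 kb.

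The exons of the long loci were more numerous but of ordinary size. The longest transcript had a median of 8 exons (quartiles 6 and 13, at most 64), against 5 in shorter spliced loci, and 20 or more exons were found in 61 long loci (8.88%) against 1.23% of shorter ones. Internal exons had a median of 150 bases in long loci and 153 bases in shorter ones. First exons were also alike, with a median of 256.5 bases in long loci and 252 bases in shorter ones. The last exon differed, with a median of 1010.5 bases against 411 bases, and its quartiles overlapped widely (86.75 to 2853 bases against 92 to 1870 bases). The exonic length of the transcript was 3036 bases in the median long locus and 1856 bases in the median shorter one.

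The longest intron lay near the 5′ end, and its position was not a term of the rule. Among 620 long loci with a strand and at least 3 introns, the longest intron was the first in 319 (51.5%, interval 47.5 to 55.4%), against 1741 of 6553 shorter loci (26.6%, interval 25.5 to 27.7%). An even spread over the introns of the same loci would give 14.2% in long loci and 19.6% in shorter ones. The longest intron was the second in another 24.8% of long loci, so that 473 of 620 (76.3%) had it in one of the first positions. It was the last in only 15 long loci (2.42%), against 19.3% of shorter loci. Since strand was read from splice sites and 5′ ends can be missed in assembly, the first intron here is the first that was assembled. A 5′ exon missed before a long intron also shortens the span, so the share is not independent of the rule.

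**Figure D1:**
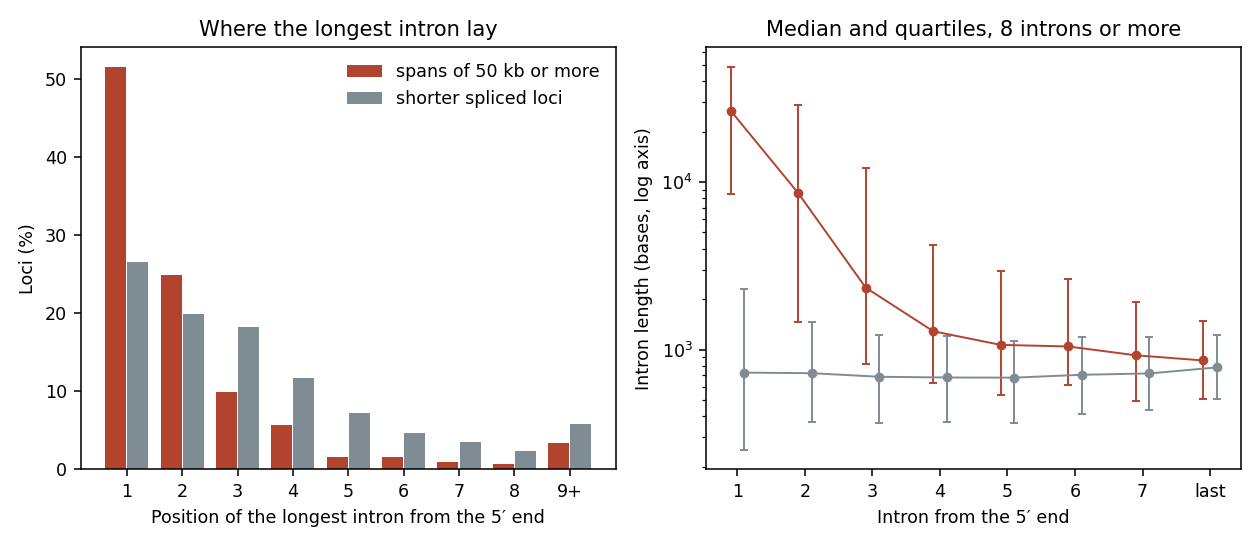
The left panel gives the share of loci (%) whose longest intron lay at each position from the 5′ end, for 620 loci spanning 50 kb or more and 6553 shorter spliced loci, all with at least 3 introns. The right panel gives the median length and quartiles of each intron (bases, log axis) in loci with at least 8 introns. The long loci peak at the first intron (51.5%), and their medians fall to 860.5 bases at the last intron, near the 782 bases of shorter loci.

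The excess of first introns was present at every number of introns. With 3 or 4 introns the longest was the first in 55.6% of long loci and 32.5% of shorter ones, where an even spread gives 28.5% and 29.4%. With 5 to 9 introns the shares were 53.4% in long loci and 24.3% in shorter ones. With 10 to 19 introns they were 48.3% and 20.6%, and with 20 or more they were 46.2% of 52 long loci and 11.0% of 100 shorter ones. The intervals of long and shorter loci did not overlap in any of these classes. Within the long loci the share hardly moved with span, at 50.8% from 50 to 100 kb, 54.2% from 100 to 200 kb and 46.9% above. Among shorter loci it stood at 20.5% for spans of 3 to 10 kb and at 44.6% for spans of 20 to 50 kb, so the share was already high in the class next below 50 kb.

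Intron length fell away from the 5′ end in long loci only over the first few introns. In the 336 long loci with at least 8 introns the first intron had a median of 26634 bases, the second 8588.5 bases, the third 2341.5 bases and intron 4 1286 bases. The last intron had a median of 860.5 bases. The medians of the 1906 shorter loci with as many introns showed no such slope, with 728 bases at the first intron, 681 bases at intron 4 and 782 bases at the last. Introns of 10 kb or more made up 72.9% of first introns in the long loci, 47.9% of the introns after them and 2.98% of last introns. In the shorter loci they also became rarer along the gene, from a lower start, with 8.24% of first introns, 2.94% of second introns and 0.472% of last introns. Where the second intron was the longest, the first was itself often long, with a median of 13085.5 bases and 10 kb or more in 92 of 154 loci.

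Little exon sequence stood before the longest intron. It was preceded by a median of 389.5 exon bases in long loci and 624 bases in shorter ones, which is 13.7% of the exonic length in long loci and 33.1% in shorter ones. The shorter flank of exons beside the longest intron was under 50 bases in 22 long loci (3.20%), against 6.17% of shorter loci. Whether both sides of such an intron belong to 1 gene was not tested.

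The 5 longest introns were all first introns, and the exons after them were compact at some loci and spread out at others. The largest was on nscaf2529 (plus strand, 4583656 to 4869980), where 317 bases of first exon were followed by an intron of 276503 bases and 4 exons packed into less than 10 kb. Its level was 255 FPM (fragments per 1000000 fragments, interval 243 to 266) in the hindwing bud and 243 FPM (230 to 256) in the forewing bud. The intervals overlapped, and the intron was assembled in both libraries. Both libraries also held shorter forms that did not cross it, which began inside it near its 3′ end or after it. Transcripts that crossed it took 29.3% of hindwing and 52.9% of forewing fragments. A single-exon hindwing transcript at the 3′ end took 63.8% of hindwing fragments there, whereas the forewing transcripts ran through that stretch.

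A locus on nscaf2993 (minus strand, 1474467 to 1785998) had a first intron of 269238 bases and a single form of 15 exons, identical in its introns in both wing buds. It was at 121 FPM (116 to 126) in the hindwing bud and 112 FPM (107 to 117) in the forewing bud. On nscaf2847 (minus strand, 1764966 to 2027335) a first intron of 256809 bases separated a first exon of 134 bases from 2 exons of 1889 and 2811 bases. Its level was 102.7 FPM in both buds, the closest match among the loci named here. The locus on nscaf2842 (minus strand, 1573455 to 1896463) had a first intron of 246092 bases, followed by 1 of 53036 bases. It was at 24.5 FPM (22.7 to 26.2) in the hindwing bud and 19.4 FPM (17.5 to 21.3) in the forewing bud, intervals apart, at a log2 ratio of 0.32.

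The remaining locus of the 5 with the longest introns was seen in 1 library only at full length. On nscaf3040 (minus strand, 3745192 to 4014619) the intron of 265762 bases joined a first exon of 33 bases in the hindwing assembly. The forewing transcript there spanned 3632 bases. Levels were 6.86 FPM (5.15 to 8.57) in the hindwing bud and 4.93 FPM (4.06 to 5.81) in the forewing bud, with overlapping intervals.

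**Figure D2:**
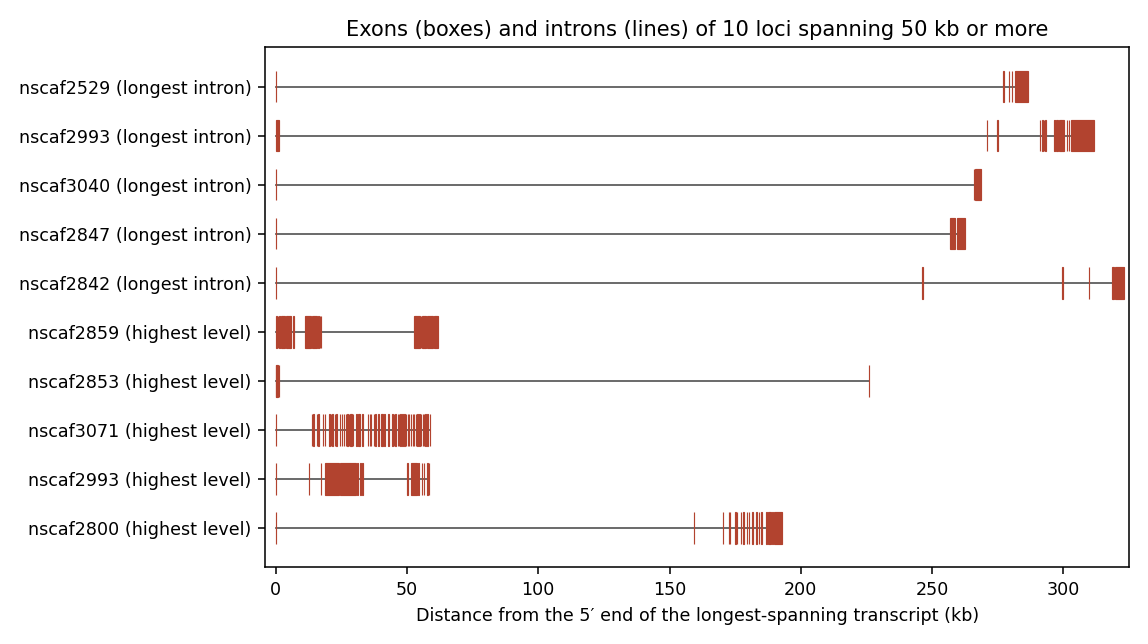
Exons (boxes) and introns (lines) of the longest-spanning transcript of the 5 loci with the longest intron and the 5 with the most fragments, drawn from the 5′ end (kb). The upper 5 start with 1 exon and an intron of 246092 to 276503 bases, and the loci with the most fragments hold their longest intron at the first position on nscaf3071 and nscaf2800 and further on in the other 3.

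At 3 of the 5 loci with the longest transcripts the full span was assembled in 1 wing bud only. The longest of all, on nscaf2860 (plus strand, 1202555 to 1748198), spanned 545622 bases in the forewing assembly with 12 exons that add up to 885 bases. The hindwing assembly covered only part of this stretch, with 2 transcripts of 273403 and 182632 bases. They ran from 1202555 to 1475957 and from 1549706 to 1732337, so the stretch between them and the 3′ end were not covered. The level was low, 1.77 FPM (1.02 to 2.52) in the hindwing bud and 2.03 FPM (1.24 to 2.82) in the forewing bud. On nscaf2797 (plus strand, 33312 to 435474) a forewing transcript of 3 exons covered 402163 bases but held only 17.04% of forewing fragments. The other 83.0% were in a form of 171081 bases whose intron was shared by a hindwing form of 170910 bases, the longest there. The locus was at 3.71 FPM in the hindwing bud and 3.76 FPM in the forewing bud. On nscaf2818 (plus strand, 226119 to 621764) it was the hindwing transcript that was longer, 395646 bases against 234742 bases in the forewing bud. This locus was low, at 1.34 FPM (0.827 to 1.86) in the hindwing bud and 0.551 FPM (0.269 to 0.833) in the forewing bud.

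The other 2 had nearly the same full span in both libraries. The locus on nscaf2910 (minus strand, 33152 to 450101) reached 416824 bases in the hindwing bud and 416950 bases in the forewing bud, with 18 exons in each. It held a first intron of 111436 bases and an intron 4 of 209544 bases. Its level was 35.4 FPM (32.3 to 38.5) in the hindwing bud and 41.2 FPM (37.3 to 45.1) in the forewing bud, and a 12-exon form that began downstream of those introns took 17.8% of hindwing and 23.2% of forewing fragments. On nscaf3066 (minus strand, 1510 to 405798) transcripts of 9 exons spanned 403974 bases in the hindwing bud and 404285 bases in the forewing bud, with introns of 204710 and 155213 bases in the first positions. Its level was 5.11 FPM (4.23 to 5.996) in the hindwing bud and 4.53 FPM (2.98 to 6.08) in the forewing bud.

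The loci nearest the limit were typical of neither extreme. Those just inside were on nscaf1690 (1155501 to 1205561) with a transcript of 50045 bases and 10 exons and on nscaf2210 (1913642 to 1963694) with 50053 bases and 11 exons. Those just outside were on nscaf2983 (1198486 to 1248480) with 49995 bases and 8 exons and on nscaf2986 (5176168 to 5226151) with 49974 bases and 4 exons. The locus on nscaf1690 was at 34.4 FPM in the hindwing bud and 30.1 FPM in the forewing bud, and that on nscaf2986 at 9.75 FPM in the hindwing bud and 8.85 FPM in the forewing bud.

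Introns of the long loci recurred with the same ends in both wing buds, the longest a little less often. Of their introns under 1 kb, 95.9% of those in the hindwing assembly and 94.2% of those in the forewing assembly were also in the other. For introns of 50 kb or more, 362 were in both, which is 91.0% of 398 in the hindwing bud (interval 87.7 to 93.4%) and 86.2% of 420 in the forewing bud (interval 82.6 to 89.2%). Introns of 10 to 50 kb recurred at like rates in long loci (91.2% of hindwing, 90.4% of forewing) and shorter loci (91.1% of hindwing, 88.4% of forewing). The longest intron of a locus was in both assemblies for 583 long loci (84.9%), against 90.4% of shorter ones. Among those seen in both, it was the first in 272 of 532 long loci (51.1%) and in 24.5% of shorter loci.

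**Figure D3:**
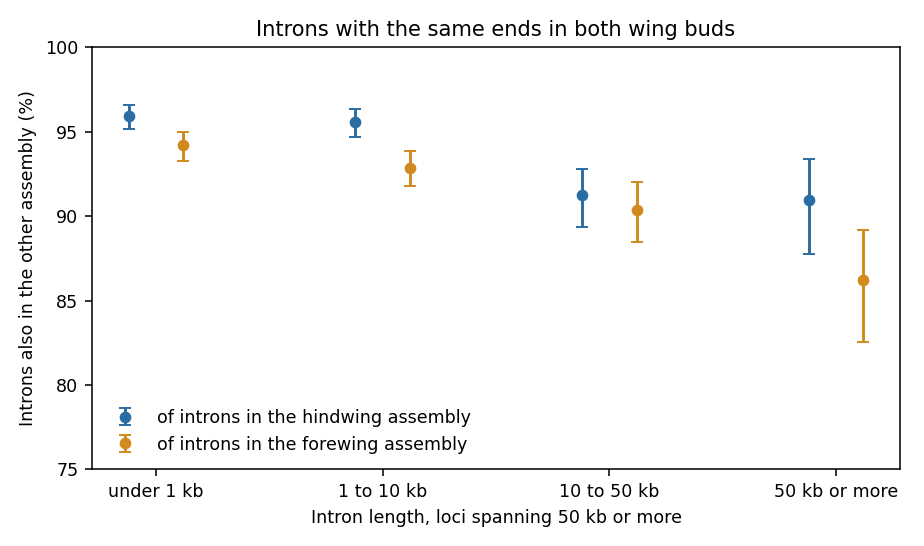
Share of introns of the long loci that had the same ends in the other wing bud (%, axis from 75), by intron length, with 95% Wilson intervals. The share was 95.9% of hindwing and 94.2% of forewing introns under 1 kb, and 91.0% of hindwing and 86.2% of forewing introns of 50 kb or more.

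Most long loci reached 50 kb in both buds. Both libraries held such a transcript at 588 loci (85.6%), the hindwing library alone at 36 and the forewing library alone at 63. Loci that reached it in both were better covered, with medians of 34.3 FPM in the hindwing bud and 33.0 FPM in the forewing bud. Those that reached it in hindwing alone had medians of 11.3 FPM in the hindwing bud and 9.23 FPM in the forewing bud, and those that reached it in forewing alone had 16.9 FPM in the hindwing bud and 15.3 FPM in the forewing bud. The hindwing assembly split more of the long loci: the assembler cut 131 (19.1%) into more than 1 multi-exon gene in the hindwing bud and 54 (7.86%) in the forewing bud, against 8.55% of shorter loci in hindwing and 4.19% in forewing. Transcripts of 50 kb or more carried a median of 92.2% of a long locus's fragments in the hindwing bud and 100% in the forewing bud. Over 510 loci with 50 kb in both buds and at least 5 FPM in each, this share was at least 20 points higher in the hindwing bud at 48 loci and at least 20 points higher in the forewing bud at 101, and within 5 points at 277. Whether the pieces are separate transcripts or gaps in assembly was not tested.

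The long loci had more forms, that is, distinct sets of introns, than shorter ones. The median was 3 forms over both libraries (at most 11), against 2 in shorter loci, and 515 long loci (74.96%) had more than 1 form against 51.0%. The median of 3 was not stable: it was 2 forms among loci that reached 50 kb in each wing bud. It was also 2 with spans from 30 kb. The number of forms also went with exon number, which was larger in long loci. With 4 to 9 exons the mean was 2.56 forms in long loci and 2.11 in shorter ones, and with 10 to 19 exons it was 3.46 forms in long loci and 3.01 in shorter ones. Fewer forms recurred between the wing buds: 590 were shared, which is 43.1% of 1368 hindwing forms and 45.6% of 1293 forewing forms, against 59.2% of hindwing and 61.3% of forewing forms in shorter loci. The wing buds had no form in common at 242 long loci (35.2%, against 24.1% of shorter loci), yet no intron in common at only 4.

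Where the sets of forms were identical, their proportions were close in the wing buds. There were 67 long loci with the same forms in both buds and at least 2 of them. The most abundant form differed between the buds in 11 (16.4%, interval 9.42 to 27.1%), against 15.2% of shorter loci of the same kind. The largest shift in the share of a form had a median of 5.51 points in long loci and 5.31 points in shorter ones.

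Loci with 11 forms, the highest number, were assembled quite differently in the wing buds. On nscaf2887 (plus strand, 1770561 to 1839154) the forewing assembly held 4 forms of 30 to 40 exons, all reaching the same 3′ end, while the hindwing assembly held 7 forms in 5 genes laid end to end, the longest with 19 exons. The level of the whole was 170 FPM (156 to 184) in the hindwing bud and 155 FPM (145 to 166) in the forewing bud, with overlapping intervals. On nscaf2986 (plus strand, 5288098 to 5408110) it was the forewing assembly that was in more pieces, with 7 forms in 4 genes against 4 forms in 2 genes in the hindwing bud. Its level was 96.1 FPM (88.2 to 104) in the hindwing bud and 99.8 FPM (88.8 to 111) in the forewing bud.

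Per length, long loci had median levels a little below those of shorter spliced loci, and further below at some exon numbers. By FPM, of which exonic length is a factor, the order was the other way. The hindwing medians were 30.6 FPM in long and 25.1 FPM in shorter loci, and the forewing medians 30.5 and 25.1 FPM. Levels of different loci are compared below per length, as the summed midpoints of the deposited FPKM intervals (fragments per kilobase and 1000000 fragments). This sum also adds pieces of a locus laid end to end. The median long locus had a summed midpoint of 11.3 FPKM in the hindwing bud (quartiles 5.84 and 23.6) and 10.8 FPKM in the forewing bud (5.35 and 22.7). Shorter spliced loci had medians of 12.9 FPKM in the hindwing bud and 12.6 FPKM in the forewing bud, with quartiles that overlap those of the long loci almost wholly. At like exon number the long loci had the lower median in every class and in both buds. With 4 to 9 exons the hindwing medians were 9.43 FPKM in long loci and 13.5 FPKM in shorter ones. With 10 to 19 exons they were 15.1 and 16.4 FPKM, and with 20 or more exons 16.0 and 23.9 FPKM. The level per length changed little with span, with hindwing medians of 11.7 FPKM from 50 to 100 kb, 11.1 FPKM from 100 to 200 kb and 9.29 FPKM in the 55 loci above 200 kb. The 28 long loci with only 1 intron had a median of 558 exonic bases and median summed midpoints of 10.1 FPKM in the hindwing bud and 7.04 FPKM in the forewing bud, and their intron was in both assemblies at 22.

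The long loci with the most fragments were diverse in structure. The highest was on nscaf2859 (plus strand, 762519 to 824524), a gene body of 37 exons and 16621 exonic bases, at 3352 FPM (3330 to 3374) in the hindwing bud and 3328 FPM (3293 to 3363) in the forewing bud. Its longest intron, of 35132 bases, was its intron 21. On nscaf2993 (minus strand, 704587 to 763099) a locus of 16 exons was at 1484 FPM (1462 to 1507) in the hindwing bud and 1295 FPM (1267 to 1322) in the forewing bud, intervals apart. On nscaf2800 (1158121 to 1350780) hindwing transcripts of both strands met at the 3′ end. The plus-strand transcript had a first intron of 158932 bases and took 37.8% of hindwing fragments, while the long forewing transcript, of 16 exons, took 19.8% of forewing fragments. Most fragments of the locus were in short transcripts at its 3′ end, with 43.6% of hindwing fragments in a minus-strand transcript of 2843 bases and 80.2% of forewing fragments in a plus-strand one of 5023 bases. The locus as a whole was at 1416 FPM (1384 to 1449) in the hindwing bud and 1262 FPM (1240 to 1283) in the forewing bud.

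On nscaf2853 (minus strand, 667082 to 892973) 4 exons lay close together at the 5′ end, and an intron of 224614 bases joined them to a last exon of 40 bases. This was the highest of these 5 per length, with a summed midpoint of 2145 FPKM in the hindwing bud and 1977 FPKM in the forewing bud. The intron was in both assemblies, but the span of this locus rests on that 40-base exon alone. Without it the locus would not have met the rule.

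On nscaf3071 (minus strand, 739077 to 797851) 57 exons shared 58773 bases of span. Its level was 1707 FPM (1680 to 1733) in the hindwing bud and 2379 FPM (2349 to 2410) in the forewing bud, a log2 ratio of -0.48 with intervals apart. The summed midpoint had the other order, with 284 FPKM in the hindwing bud and 237 FPKM in the forewing bud. This sum adds a 23-exon hindwing form of 3478 bases that covered only 739077 to 753561. That form took 35.5% of hindwing fragments and had no counterpart in the forewing bud, where both forms had 57 exons. The sum therefore does not give the order over the rest of the locus. There the hindwing bud had only its 57-exon form, at 1100 FPM. The 57-exon forewing forms, of nearly the same exonic length, were at 2107 and 272 FPM.

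Hindwing and forewing levels of the long loci were close. The comparison asks which loci differ between the wing pairs, and it used log2((hindwing + 1)/(forewing + 1)) of FPM, in which low loci are understated, for the 682 of 687 long loci with at least 1 FPM in a library. The median log2 ratio was 0.05 (interval 0.02 to 0.07), against 0.01 in shorter loci and 0.01 over all spliced loci. The hindwing value was the higher in 395 long loci (57.9%), against 51.8% of shorter ones. By level, the median of long loci was 0.09 under 5 FPM, 0.10 from 5 to 20 FPM, 0.03 from 20 to 100 FPM and -0.01 above. Shorter loci had medians of -0.01, 0.05, 0.01 and -0.01 in these classes, so they too leaned toward the hindwing from 5 to 20 FPM. The median locus differed 1.12-fold in either direction, in long and in shorter loci alike, and 452 long loci (66.3%) lay within 1.2-fold, against 67.0% of shorter ones. Fewer cells of a kind in a bud and less RNA per cell cannot be told apart in pooled buds.

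**Figure D4:**
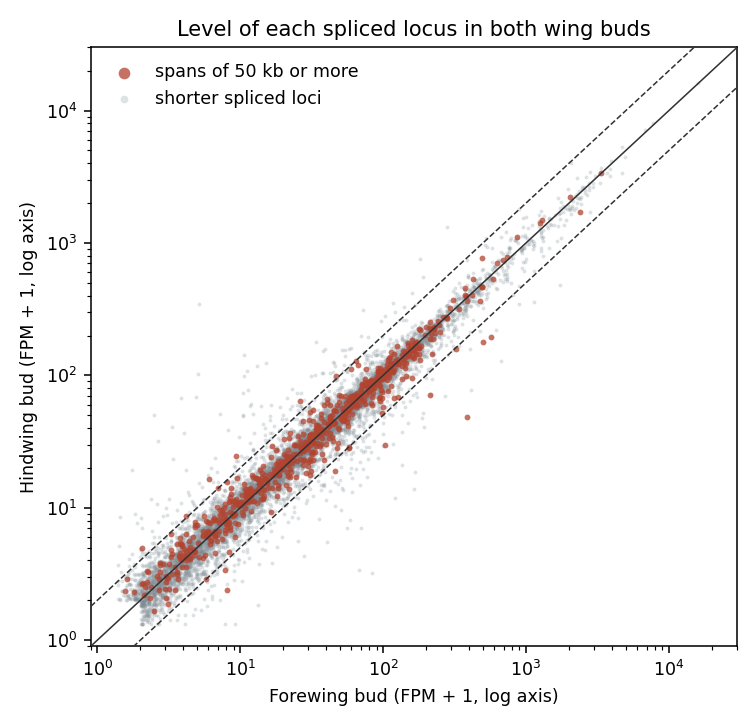
Level of each spliced locus with at least 1 FPM in a library, hindwing bud against forewing bud (FPM + 1, log axes), with the 682 loci spanning 50 kb or more over the 9497 shorter ones. The solid line is equality and the dashed lines are 2-fold; 18 long loci lie beyond them, 7 above and 11 below.

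A 2-fold difference was found at 18 of the 682 long loci (2.64%, interval 1.68 to 4.13%). Among shorter spliced loci it was found at 346 of 9497 (3.64%, interval 3.28 to 4.04%), and the share over all spliced loci was 3.58%. In the hindwing direction there were 7 long loci (1.03%), against a background of 1.8% of shorter and 1.75% of all spliced loci. In the forewing direction there were 11 (1.61%), against 1.84% of shorter and 1.83% of all spliced loci. The interval of the share over both directions took in the background. Of the 18, 13 reached 50 kb in both libraries (5 hindwing, 8 forewing). The balance between directions turned with the scale. By the summed midpoint, 76 long loci differed 2-fold, 50 toward the hindwing (7.30%, against 5.18% of shorter loci) and 26 toward the forewing (3.80%, against 4.78%). With the deposited FPKM there were 66 toward the hindwing and 31 toward the forewing. Both sums add pieces of a locus laid end to end, so a locus cut into more pieces scores higher. On nscaf2887, in 5 hindwing genes and 1 forewing gene, the summed midpoint was 178 FPKM in the hindwing bud and 23.6 FPKM in the forewing bud. On nscaf2986 (5288098 to 5408110), in 2 hindwing and 4 forewing genes, it was 57.0 and 118 FPKM. The hindwing assembly cut more of the long loci. The part of this in the balance was not tested. Intervals of the 2 libraries were apart at all 18, but they were also apart at 194 long loci (28.4%) and at 32.2% of shorter ones. By level, 2-fold loci made up 4.65% of long loci under 5 FPM, 2.23% from 5 to 20 FPM, 1.74% from 20 to 100 FPM and 3.88% above, against 3.80%, 3.35%, 4.00% and 2.99% of shorter loci.

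Most of the 2-fold differences went with a difference in assembled length. Exonic length is a factor of the level in FPM, so part of this association is built in and carries no conclusion. The exonic length of the transcripts, weighted by abundance, agreed within 1.2 times between the wing buds at 391 of the 682 long loci, a measure chosen after the values were seen. Only 2 of the 18 differences were among those 391 (0.512%, interval 0.140 to 1.85%), against 120 of 5859 shorter loci of like length (2.05%). By the summed midpoint, 7 of the 18 were again 2-fold in the same direction (4 hindwing, 3 forewing), and 1 pointed the other way. This sum is per length but also adds pieces of a locus laid end to end. The part of assembly in these differences was not tested further.

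**Figure D5:**
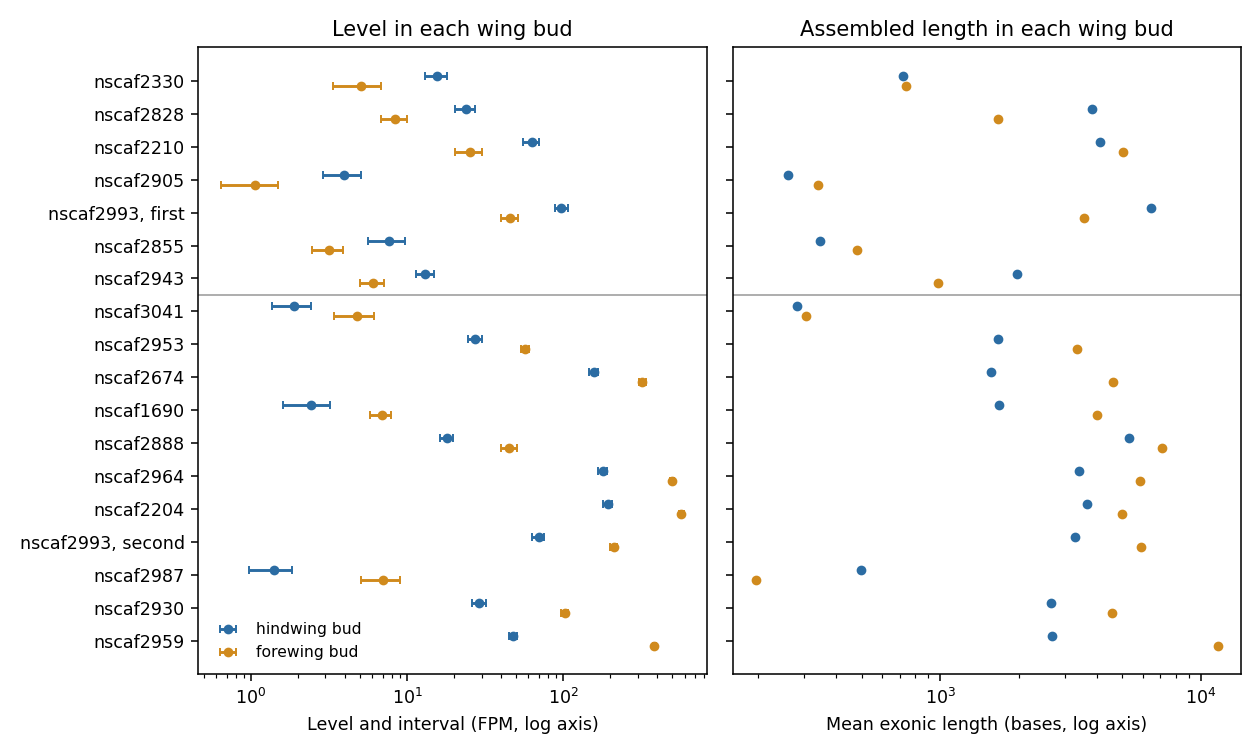
The 18 long loci that differed 2-fold, with the level and its interval (FPM, log axis) on the left and the mean exonic length weighted by abundance (bases, log axis) on the right, in each wing bud. The 7 loci above the grey line were higher in the hindwing bud and the 11 below it in the forewing bud; levels are apart in all 18, and lengths agree within 1.2 times only on nscaf2330 and nscaf3041.

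The 2 loci that differed at like assembled length were both below 20 FPM. On nscaf2330 (minus strand, 1227819 to 1314633) the level was 15.5 FPM (13.0 to 18.0) in the hindwing bud and 5.06 FPM (3.33 to 6.79) in the forewing bud, a log2 ratio of 1.44, the largest toward the hindwing. The summed midpoint was 21.5 FPKM in the hindwing bud and 6.86 FPKM in the forewing bud. Its long forms were in the forewing assembly alone: the longest hindwing transcript spanned 35775 bases and the longest forewing transcript 82431 bases. On nscaf3041 (plus strand, 1149038 to 1381902) the level was 1.88 FPM (1.36 to 2.41) in the hindwing bud and 4.77 FPM (3.39 to 6.15) in the forewing bud, a log2 ratio of -1.002. Here the deposited FPKM did not differ, at 15.5 in the hindwing bud and 15.6 in the forewing bud, and the hindwing value lay outside its own interval.

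The largest difference of all was toward the forewing, on nscaf2959 (plus strand, 259966 to 318177). It was at 47.8 FPM (45.2 to 50.3) in the hindwing bud and 384 FPM (376 to 393) in the forewing bud, a log2 ratio of -2.98. It met the 50 kb rule through the forewing library alone, where it was high, with a longest span of 49256 bases in the hindwing bud and 58212 bases in the forewing bud. Both buds had 1 form with the same 14 exons and the same introns, but the exons added up to 2676 bases in the hindwing assembly and 11632 bases in the forewing assembly, where the last exon ran on. Per length the difference was smaller, with a summed midpoint of 17.9 FPKM in the hindwing bud and 33.0 FPKM in the forewing bud. The next largest, on nscaf2930 (plus strand, 4165975 to 4308910), was at 29.0 FPM (26.1 to 31.9) in the hindwing bud and 102 FPM (97.1 to 108) in the forewing bud. Its summed midpoint was 10.9 FPKM in the hindwing bud and 22.4 FPKM in the forewing bud, and a 10-exon form in the forewing bud held 93.2% of fragments.

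Toward the hindwing the next largest difference was on nscaf2828 (plus strand, 4195333 to 4267643), at 23.7 FPM (20.3 to 27.1) in the hindwing bud and 8.38 FPM (6.82 to 9.94) in the forewing bud, a log2 ratio of 1.40. Its mean exonic length was 3811 bases in the hindwing bud and 1660 bases in the forewing bud, and its summed midpoints were close, 6.22 FPKM in the hindwing bud and 5.05 FPKM in the forewing bud. The locus on nscaf2210 (plus strand, 2207358 to 2292385), another of those with 11 forms, was 2-fold higher in the hindwing bud by FPM and by the summed midpoint. It was at 62.8 FPM (55.7 to 69.8) in the hindwing bud and 25.3 FPM (20.4 to 30.1) in the forewing bud, and its summed midpoint was 15.3 FPKM in the hindwing bud and 5.04 FPKM in the forewing bud. The hindwing forms lay end to end in 3 genes, while 5 forewing forms ran from the 5′ end through most of the locus. The summed midpoint therefore does not give the difference over any 1 stretch. The forewing forms ended by 2286529, before the hindwing end at 2292385. A hindwing transcript at the 3′ end, of 3 exons and 6073 bases, held 48.8% of hindwing fragments there, and no form was shared between the buds.

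Another 3 loci that were higher in the forewing bud by FPM were picked out after their values were seen. On nscaf2204 (plus strand, 1772513 to 1864063) the level was 193 FPM (181 to 205) in the hindwing bud and 572 FPM (550 to 593) in the forewing bud, with 2 of 3 forms shared, and its summed midpoint was 52.6 FPKM in the hindwing bud and 115 FPKM in the forewing bud. On nscaf2993 (plus strand, 4330117 to 4468150) all 3 forms were the same in both buds, at 69.6 FPM (63.4 to 75.8) in the hindwing bud and 211 FPM (199 to 223) in the forewing bud. Its mean exonic length was 3276 bases in the hindwing bud and 5892 bases in the forewing bud, and its summed midpoint was 21.2 FPKM in the hindwing bud and 35.8 FPKM in the forewing bud. On nscaf2964 (minus strand, 1207044 to 1291208) the level was 179 FPM (167 to 192) in the hindwing bud and 498 FPM (481 to 515) in the forewing bud, with summed midpoints of 52.4 FPKM in the hindwing bud and 85.3 FPKM in the forewing bud. This locus met the 50 kb rule through the hindwing library alone, where transcripts of 50 kb held 20.3% of its fragments. Its longest forewing transcript spanned 32373 bases, so the forewing level is that of shorter transcripts. Of these 3, only the locus on nscaf2204 was also 2-fold higher per length.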

How the data were processed

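RNA of 80 pooled hindwing and 80 pooled forewing buds was fragmented, copied from random hexamers and sequenced in pairs with a kit that does not mark strand. The authors mapped reads with TopHat and assembled each library with Cufflinks (2.1.1 in the submitters' processing notes). The genome build was not given in the sources used here. The deposited files list transcripts, exons, FPKM, confidence bounds and coverage, unscaled between libraries. The deposited score orders the forms within a gene and was not used in any result.

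Transcripts were joined by exon overlap. A level in FPM was the interval midpoint times exonic length in kb, summed over the transcripts of a locus, and its interval was the same sum of the bounds. Depth was the number of fragments that made bounds below 300 fragments whole within 0.01, which held for 92.3% of hindwing and 91.7% of forewing bounds. A pseudocount of 1 FPM, a minimum of 1 FPM in a library and a 2-fold threshold were used, with no rescaling. The position of the longest intron was read from the longest-spanning transcript with a strand and at least 3 introns. The interval of a median came from order statistics.

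Loci named were the 5 with the longest transcript, the 5 with the longest intron, the 5 with the highest mean FPM, the 3 with the most forms (1 more locus tied with them), the 2 with the highest and the 2 with the lowest ratio at 5 FPM or more with intervals apart and a shared intron, and the 2 on each side of the limit. Loci named outside this rule are said to be so in the text, apart from nscaf3041, 1 of the 2 differences at like length, and nscaf2176, which had the most spliced loci inside its introns. The members, rules and settings were chosen with earlier results of these data known. The gene table at hand describes a different assembly and shares no identifier with the files, so no gene name or sequence is given. The code was tested on simulated data. Python 3.11.15, numpy 2.4.6, scipy 1.17.1 and matplotlib 3.10.9 were used.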

Additional observations from a re-analysis of the deposited data

How the results depend on the processing

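Of 94 alternative values, 35 moved by more than the limit set for them. The median log2 ratio stayed above 0 in all of its own. With spans from 30 kb there were 1235 long loci, 34 of them 2-fold different (15 hindwing, 19 forewing), with a median longest intron of 33582 bases. From 100 kb there were 251 loci, 5 different (1 hindwing, 4 forewing), with a median longest intron of 94152 bases and a median log2 ratio of 0.0692. A pseudocount of 5 left 11 differences (4 hindwing, 7 forewing), and one of 0.1 gave 12 in the hindwing direction. The deposited FPKM gave 97 (66 hindwing, 31 forewing; 14.1% of long against 12.3% of shorter loci), a median log2 ratio of 0.0929 and, in FPKM, median levels of 11.6 in hindwing and 11.1 in forewing. The midpoint without length gave 76 (50 hindwing, 26 forewing; 11.1% against 9.96%) and a median of 0.0785. The most abundant transcript alone gave 41 (17 hindwing, 24 forewing; 6.05% against 5.54%) and a median of 0.0217. With these 3 settings the long loci stood above the shorter ones, the other way from 2.64% against 3.64% by FPM. With the first 2, which add the pieces of a locus, the hindwing direction held more loci. In the hindwing bud the most abundant transcript had a median longest intron of 40483 bases and 7 exons, and in the forewing bud a longest intron of 43266 bases.

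Chosen after seeing the data, loci assembled as 1 gene in each library had 9 differences and the longest intron first in 55.6%, and loci of like assembled length had 2 differences. No paired analysis was possible because each wing bud had 1 library, and for the same reason leaving out a library was not run. The count of 2-fold differences thus depends on how transcript length and the pieces of a locus enter the level. The share with the longest intron first stayed between 50.4% and 55.6% over its alternatives.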

Other observations

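The long introns held other transcripts. Of the 687 long loci, 320 (46.6%) had at least 1 other locus wholly inside an intron of their longest transcript, and 42 (6.11%, interval 4.55 to 8.16%) had a spliced one, against 12.1% and 0.483% of shorter spliced loci. Long loci offered more room for this. Per megabase of intron they held 23.2 loci, against 30.5 in shorter loci, and 0.824 spliced loci, against 0.742. Of the nested spliced loci with a strand, 34 of 56 (60.7%) in long loci ran against the strand of the host, and 60.4% did in shorter loci. The long locus with the most spliced loci inside its introns was on nscaf2176 (minus strand, 2936734 to 3086434), with 12 loci inside, of which 7 were spliced, and its first intron had 139366 bases. It was at 160 FPM (150 to 170) in the hindwing bud and 179 FPM (167 to 190) in the forewing bud.

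Long loci lay on 141 of the 2947 scaffolds with any locus, at most 25 on one scaffold (nscaf2888). Their spans covered 71.4 megabases, 16.6% of the extent up to the last locus of each scaffold. They ran along the plus strand in 344 cases and the minus strand in 336, and 7 held transcripts of both strands.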
